A study of Mus musculus with 6 samples.

Results

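Hepcidin and the genes that move, store and sense iron were followed in the livers of insulin-resistant (IR) mice given insulin or its vehicle. The set was named by role: Hamp and Hamp2, Bmp6, Id1, Smad7, Tfr2, Tfrc, Fth1, Ftl1 and Slc40a1, which are 10 of the 54532 genes in the count table. All 10 had counts in at least 1 library, and 9 passed the filter on low counts, Hamp2 being the exception. The rule went by name and role, with no threshold on a measured value.

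Male C57BL/6J mice were bought at 7 weeks of age and fed a high-fat diet for 6 weeks from 8 weeks of age to make them insulin resistant. After a 16 h fast, 3 mice (IR insulin) received insulin at 0.75 units per kg body weight into the peritoneal cavity and 3 mice (IR vehicle) received bovine serum albumin (BSA). The livers were taken after 6 h, and RNA from each was sequenced. All 6 mice shared the strain, sex, diet and fast. Chow-fed mice were not analysed here, so the comparison asks what insulin did to iron genes within diet-induced insulin resistance and not what the diet did.

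The liver governs body iron through hepcidin, the peptide hormone encoded by Hamp, which binds the iron exporter ferroportin (Slc40a1) and causes its loss from the cell surface. Hepatocytes raise Hamp when BMP6, a ligand from sinusoidal endothelial cells that rises with liver iron, signals through SMAD proteins, and when IL-6 signals through STAT3 during inflammation. Inside the cell, iron regulatory proteins bind hairpins called iron-responsive elements (IREs). Binding in the 5′ UTR of ferritin or ferroportin mRNA blocks translation, whereas binding in the 3′ UTR of transferrin receptor (Tfrc) mRNA stabilises it.

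The 2 hepcidin promoters are shown because the BMP and IL-6 arms are both known to act through sites close to the Hamp start. The windows are the 250 bases upstream of the RefSeq gene start on the minus strand of chromosome 7 (GRCm38.p6), written 5′ to 3′. Capitals mark GGCGCC, the core of the BMP-responsive element, and TTCTTGGAA, the STAT3-type site, both searched on either strand.
Hamp, chr7:30944030-30944279: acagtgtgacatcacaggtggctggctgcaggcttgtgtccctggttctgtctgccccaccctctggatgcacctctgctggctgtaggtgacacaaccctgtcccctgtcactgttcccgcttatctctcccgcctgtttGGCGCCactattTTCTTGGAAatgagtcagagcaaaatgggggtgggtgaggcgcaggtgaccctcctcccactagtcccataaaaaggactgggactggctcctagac
Hamp2, chr7:30924182-30924431: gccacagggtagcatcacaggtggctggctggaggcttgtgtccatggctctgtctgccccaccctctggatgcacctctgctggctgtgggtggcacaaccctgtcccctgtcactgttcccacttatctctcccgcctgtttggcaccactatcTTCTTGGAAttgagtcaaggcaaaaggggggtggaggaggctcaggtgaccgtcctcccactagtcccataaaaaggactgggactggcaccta

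In the Hamp window, GGCGCC began 109 bases and TTCTTGGAA 97 bases before the start. The Hamp2 window was 91.9% identical (227 of 247 aligned bases) and held TTCTTGGAA, beginning 94 bases before the start, but not GGCGCC. The substitution inside those letters was G145A, with the Hamp base first, the position counted from 1 at the 5′ end of the printed Hamp window, and the Hamp2 base last. Of 32851 RefSeq promoter windows, which also reach 50 bases past the start, 9.59% held GGCGCC and 0.365% held TTCTTGGAA. Both were found in 3 windows (0.00913%). A match is a description of the letters and not evidence of binding.

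The IREs are shown because 4 of the genes searched carry them. They were found in GENCODE release 21 transcripts (build 38) as a 29-base hairpin, with the CAGTGN loop in capitals. The search required an unpaired C, this loop and a fully paired stem (G-T pairs allowed), so a hairpin that departs from the pattern would be missed. By this search, Fth1, Ftl1 and Slc40a1 each had 1 in the 5′ UTR, and Tfrc had 4 in the 3′ UTR.
Fth1 (plus strand), chr19:9982732-9982760: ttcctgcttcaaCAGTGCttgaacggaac
Ftl1 (minus strand), chr7:45459779-45459807: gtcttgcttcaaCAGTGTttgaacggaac
Slc40a1 (minus strand), chr1:45925465-45925493: caacttcagctaCAGTGTtagctaagttt
Tfrc (plus strand), chr16:32631219-32631247: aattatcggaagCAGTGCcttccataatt
Tfrc (plus strand), chr16:32631598-32631626: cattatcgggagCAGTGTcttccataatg
Tfrc (plus strand), chr16:32631663-32631691: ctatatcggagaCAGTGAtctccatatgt
Tfrc (plus strand), chr16:32631710-32631738: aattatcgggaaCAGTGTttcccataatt

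Across the longest coding transcripts of 21947 genes, the same search found the hairpin in the 5′ UTR of 16 (0.0729%) and the 3′ UTR of 92 (0.419%).

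The libraries held 18449986 to 21827619 counts. Levels are CPM, the usual rate of reads relative to the library total, scaled here by TMM for composition. All come from bulk liver, where fewer cells of a type and less RNA per cell cannot be told apart. A pair of vehicle libraries stood apart from the other 4. Vehicle replicate 2 had counts for 16470 genes against 18389 to 18874 in the others, and its deviation from them followed GC content, from 1.0 (log2) for the genes lowest in GC to -1.78 for the highest. Vehicle replicate 3 had the lowest summed level of 14 acute phase genes, at 23578 CPM against 43373 to 58038 CPM in the other 5 libraries. Hepatocyte markers were abundant throughout, Alb at 38255 to 138554 CPM.

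Slc40a1, the ferroportin gene, was the only iron gene of the set past the criteria of the study's methods (a log2 fold change of 0.35 or more in either direction, and p under 0.05 before adjustment), and it was lower after insulin. Its levels were 88.5, 134 and 158 CPM in the vehicle livers and 75.9, 64.7 and 87.1 CPM in the insulin livers. The groups did not overlap, although the highest insulin liver lay just below the lowest vehicle liver. The means were 127 ± 35.2 CPM (SD, n = 3) and 75.9 ± 11.2 CPM (SD, n = 3), a log2 fold change of -0.74 ± 0.27 (SE; 95% interval -1.37 to -0.11). The unadjusted p was 0.0275, and the adjusted p was 0.852 by edgeR's quasi-likelihood test (Benjamini-Hochberg over the 13377 genes tested). Slc40a1 (ENSMUSG00000025993) lies at chr1:45908068-45926523 on the minus strand.

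The background of the comparison was 383 of 13377 genes past those criteria (2.86%), 134 higher and 249 lower (1.86%). With library totals in place of TMM, the median of all genes moved from -0.017 to 0.161 (log2) and the split of the calls turned to 250 higher and 91 lower, against 97 higher and 389 lower with an offset for GC content. Groups that did not overlap were found for 12.3% of genes, 6.25% higher and 6.04% lower. At an adjusted p under 0.05, edgeR called 0 genes and DESeq2 called 0, while 383 had an unadjusted p under 0.05 in edgeR. Thus 1 of the 9 iron genes tested was past the criteria (Slc40a1), and 8 were not.

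Slc40a1 remained lower in every one of the 14 alternatives computed, between -0.94 and -0.51 (log2), with the unadjusted p from 0.00747 to 0.111. The call was lost in 7 of them. Leaving out vehicle replicate 3 gave -0.55 with an unadjusted p of 0.0744, insulin replicate 1 -0.74 with 0.081 and insulin replicate 2 -0.64 with 0.111, all in edgeR's fit. With the GC offset it was -0.58 (unadjusted p = 0.0835, edgeR). Liver macrophages (Kupffer cells) express ferroportin strongly, and the summed level of 8 Kupffer cell markers was 269 to 446 CPM in the vehicle livers and 317 to 598 CPM in the insulin livers, with no marker at 0. Among them, Clec4f ranged from 63.3 to 120 CPM and Vsig4 from 10.3 to 35.9 CPM, both highest in vehicle replicate 3, where Slc40a1 was also highest, whereas Cd5l (179 CPM), Marco (135 CPM), Csf1r (51.1 CPM), Adgre1 (47.5 CPM) and the sum of the list were highest in insulin replicate 1. Their part in the Slc40a1 difference was not tested.

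**Figure D1:**
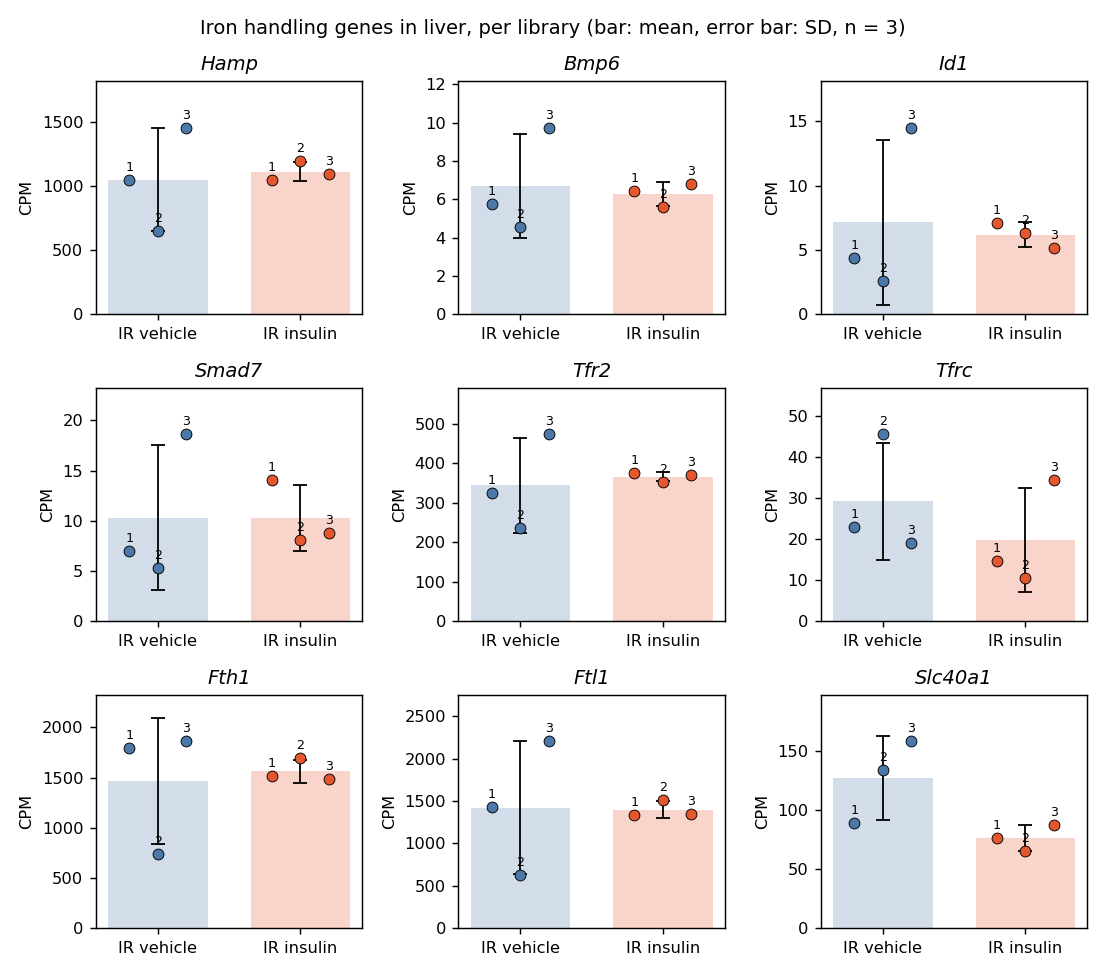
Level of each iron gene tested, in CPM (y axis, from 0), in the 3 IR vehicle (blue) and 3 IR insulin (red) livers. Points are single libraries with their replicate numbers, bars are means and error bars are SD (n = 3). Slc40a1 is the 1 panel in which the groups do not overlap, and vehicle replicate 3 is the highest point in 8 of the 9 panels.

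Hamp, the hormone gene, did not pass the test. Its levels were 1047, 653 and 1459 CPM in the vehicle livers and 1053, 1195 and 1099 CPM in the insulin livers. The lowest and the highest of the 6 were both vehicle livers, and the insulin livers all lay between them. The log2 fold change was 0.08 ± 0.33 (SE), with a 95% interval of -0.67 to 0.84 and an unadjusted p of 0.805 by edgeR's quasi-likelihood test. With 3 mice a group, the fit did not exclude a change anywhere inside that interval. Hamp (ENSMUSG00000050440) lies at chr7:30942368-30944032 on the minus strand.

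Hamp2, the adjacent copy, was close to silent. It had 0, 0 and 14 counts in the vehicle livers and 1, 3 and 1 counts in the insulin livers, set against 10637 to 30582 counts for Hamp. Most of its counts came from vehicle replicate 3, the library in which Hamp was highest, and it was not tested. Since the transcripts are near copies and the counting program was not given in the sources used here, reads shared by Hamp and Hamp2 are uncertain. Hamp2 (ENSMUSG00000056978) lies at chr7:30922372-30924681 on the minus strand in GENCODE. The printed Hamp2 window, placed by the RefSeq start, falls inside that span, so by GENCODE it is not upstream of the whole gene. Gm44662, annotated across both genes on the other strand, had 0 counts in every library.

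Bmp6, the iron-responsive ligand, was low in whole liver. It stood at 5.76, 4.54 and 9.73 CPM after vehicle and at 6.44, 5.58 and 6.78 CPM after insulin, a log2 fold change of -0.09 ± 0.34 (SE; 95% interval -0.87 to 0.68; unadjusted p = 0.787 in edgeR's quasi-likelihood fit). The groups overlapped, and vehicle replicate 3 was the highest library. The summed level of 9 sinusoidal endothelial cell markers was also highest there, at 371 CPM against 207 to 252 CPM in the other 5 libraries, with Stab2 at 37.5 CPM against 15.2 to 29.7 CPM and Stab1 at 38.4 CPM against 7.18 to 24.5 CPM. The part of these cells in the Bmp6 level was not tested. Bmp6 (chr13:38345107-38500302, plus strand) overlaps Txndc5, a gene on the other strand with 2163 to 3950 counts against 74 to 204 for Bmp6, so reads of the overlap are uncertain.

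Id1 and Smad7, direct targets of BMP and SMAD signalling that are often read as its activity in liver, differed among vehicle livers more than between groups. Id1, an inhibitor of helix-loop-helix factors, stood at 4.34, 2.58 and 14.5 CPM after vehicle and 7.07, 6.32 and 5.17 CPM after insulin. Smad7, the inhibitory SMAD that limits Hamp induction, stood at 7.03, 5.28 and 18.6 CPM after vehicle and 14.1, 8.05 and 8.81 CPM after insulin. For both, vehicle replicate 3 was the highest of the 6 livers and vehicle replicate 2 the lowest, so the insulin livers lay inside the vehicle range. The log2 fold change was -0.21 ± 0.59 (SE) for Id1 (95% interval -1.57 to 1.14) and -0.0036 ± 0.49 (SE) for Smad7 (95% interval -1.13 to 1.12). Without vehicle replicate 3, Id1 turned to 0.83 with an unadjusted p of 0.0492 (adjusted p = 0.522 by edgeR's quasi-likelihood test with Benjamini-Hochberg adjustment) and Smad7 to 0.74 with an unadjusted p of 0.0689 in edgeR's fit. Both signs also turned with the replicate block (0.18 and 0.18) and with voom (0.18 and 0.24), where all 6 livers were kept. Id1 (ENSMUSG00000042745) lies at chr2:152736251-152737410.

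Neither transferrin receptor gene passed the test. Tfr2, the hepatocyte receptor that senses transferrin iron for hepcidin, stood at 324, 235 and 473 CPM after vehicle and at 376, 353 and 370 CPM after insulin. The insulin livers lay close together inside the vehicle range, and the log2 fold change was 0.09 ± 0.29 (SE; 95% interval -0.59 to 0.76; unadjusted p = 0.769 in edgeR's test across all genes). Tfrc, the uptake receptor whose mRNA carries the 4 hairpins printed above, stood at 23.1, 45.6 and 19.2 CPM after vehicle and at 14.8, 10.6 and 34.4 CPM after insulin.

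Tfrc had its own order of livers, highest in vehicle replicate 2 and lowest in insulin replicate 2, a range of 4.32-fold. Its log2 fold change was -0.56 ± 0.50 (SE; 95% interval -1.71 to 0.60; unadjusted p = 0.298 in edgeR's test). Insulin replicate 3 was the high insulin liver, and without it the value was -1.20 (unadjusted p = 0.0332, and adjusted p = 0.991 by edgeR's quasi-likelihood test with Benjamini-Hochberg adjustment). Immature red cells are known for high Tfrc, and the 7 erythroid markers in the table summed to 1588 CPM in vehicle replicate 2 against 312 to 627 CPM elsewhere, with Hbb-bs at 547 CPM there against 129 to 297 CPM and Hbb-bt at 53.1 CPM against 6.89 to 14.9 CPM. Of the 5 erythroid markers tested, 4 passed the criteria as lower after insulin, as did 1.86% of all genes. They were Hbb-bs (-1.03), Hbb-bt (-1.63), Hba-a1 (-1.30) and Hba-a2 (-3.20), each with an adjusted p of 0.852 by edgeR's quasi-likelihood test. Their groups overlapped except for Hba-a1. Hba-a2 stood at 353 CPM in vehicle replicate 2, against 22.7 and 6.58 CPM in vehicle replicates 1 and 3 and 10.7 to 18.1 CPM after insulin. The fold changes of these globin transcripts had the same sign as those of Slc40a1 and Tfrc. By library, Slc40a1 was highest in vehicle replicate 3 (158 CPM), where the erythroid sum was the lowest of the vehicle livers (413 CPM). The part of red cells in the Slc40a1 or Tfrc level was not tested. Slc4a1, which marks red cell membranes, stayed under 1 CPM in every library. The erythroid sum was lowest in insulin replicate 3 (312 CPM), the high insulin liver for Tfrc. Per kilobase of transcript, the level of Tfr2 exceeded that of Tfrc in every liver, by 8.22 to 53.1 times. Tfrc (ENSMUSG00000022797) lies at chr16:32608920-32632794 and Tfr2 (ENSMUSG00000029716) at chr5:137569840-137587481, both on the plus strand.

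The ferritin subunits, which form the shell that stores iron, were among the abundant transcripts. Fth1, the heavy subunit with ferroxidase activity, stood at 1796, 737 and 1862 CPM after vehicle and 1517, 1696 and 1481 CPM after insulin. Ftl1, the light subunit, stood at 1426, 629 and 2205 CPM after vehicle and 1338, 1509 and 1347 CPM after insulin. Vehicle replicate 2 was far below the other 5 livers for both subunits, and the insulin livers did not leave the vehicle range. The log2 fold change was 0.09 ± 0.37 (SE) for Fth1 (95% interval -0.77 to 0.96) and -0.02 ± 0.43 (SE) for Ftl1 (95% interval -1.01 to 0.97). Per kilobase, the level of Fth1 was 0.712 to 0.734 of that of Ftl1 in the insulin livers and 0.547 to 0.816 in the vehicle livers, lowest in vehicle replicate 3. Both genes have processed copies elsewhere in the genome, so their counts are uncertain. Fth1 (ENSMUSG00000024661) lies at chr19:9980598-9985098 and Ftl1 (ENSMUSG00000050708) at chr7:45457944-45459884.

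Compared per kilobase of the principal transcript, the order of mean level over the 6 libraries was Hamp (2644 CPM per kilobase), Ftl1 (1456), Fth1 (1014), Tfr2 (116), Slc40a1 (30.1), Id1 (7.14), Tfrc (5.03), Smad7 (2.41), Bmp6 (1.8) and Hamp2 (0.339). From Hamp down to Id1, each gene was above the next in 6 of 6 libraries. The place of Ftl1 above Fth1 may change with the Fth1 transcript whose length is used. Id1 was above Tfrc in 3 of 6, Tfrc above Smad7 in 4 of 6 and Smad7 above Bmp6 in 5 of 6, so these neighbours did not keep 1 order. Bmp6 was above Hamp2 in 6 of 6.

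Most of the iron genes had their extremes in the same pair of vehicle livers. Vehicle replicate 3 held the highest level of 8 of the 9 genes tested, all but Tfrc, whereas it was highest for 23.4% of all genes. Vehicle replicate 2 held the lowest level of 7 of the 9, all but Tfrc and Slc40a1, and was lowest for 37.4% of all genes. The spread (SD of log2 CPM) was larger among vehicle than among insulin livers for 8 of the 9 iron genes and for 85.2% of all genes, with medians of 0.655 and 0.143 over the iron genes and of 0.518 and 0.182 over all genes.

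Vehicle replicate 2 and vehicle replicate 3 differed in how their deviations related to GC content. In vehicle replicate 2, the 2 genes above the median of the other 5 libraries, Tfrc (39.8% GC) and Slc40a1 (43.53% GC), were the lowest in GC, and the 7 below that median had 50.49% GC or more. With the GC offset, the deviation of Ftl1 (58.06% GC) in that liver went from -1.18 to -0.07 (log2). That of Tfrc went from 1.24 to 0.32, that of Slc40a1 from 0.62 to 0.13 and that of Tfr2 from -0.65 to 0.57. Bmp6 (-0.49 to 0.74) and Smad7 (-0.73 to 0.38) also changed sign there, while Hamp (-0.75 to -0.60), Fth1 (-1.20 to -0.66) and Id1 (-1.26 to -0.56) stayed below 0, so vehicle replicate 2 was low for fewer of the iron genes once GC content was taken into account. In vehicle replicate 3 the offset left the deviations much as they were, 1.48 and 1.52 for Id1, 1.20 and 1.13 for Smad7, 0.75 and 0.61 for Bmp6 and 0.47 and 0.52 for Hamp.

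**Figure D2:**
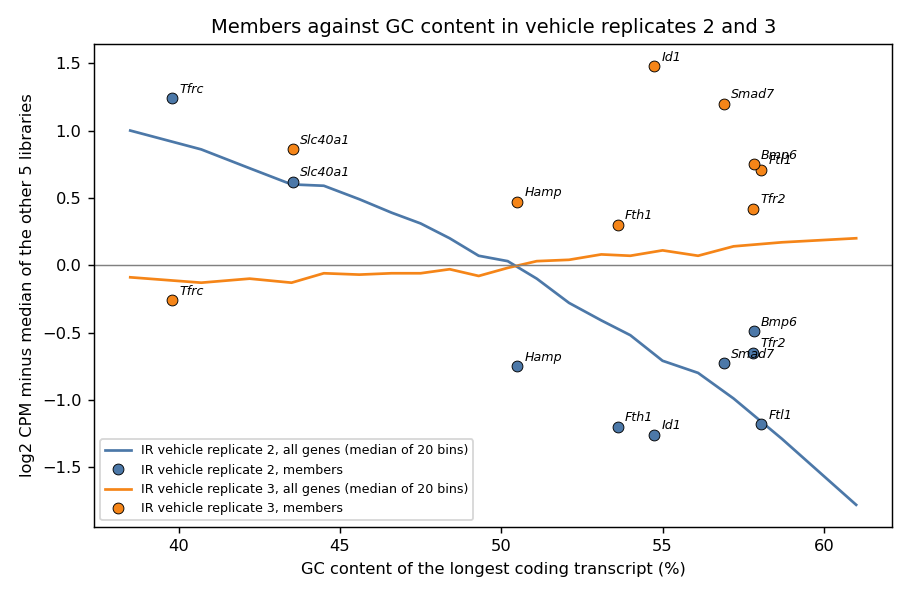
Deviation of each iron gene (points) in vehicle replicates 2 (blue) and 3 (orange) from the median of the other 5 libraries, in log2 CPM (y axis), against the GC content of its longest coding transcript in percent (x axis). Lines are medians of all genes in 20 bins of GC content. The blue line falls from 1.0 to -1.78, with Tfrc and Slc40a1 above 0 and the other 7 iron genes below it, and the orange points of Id1 and Smad7 lie at 1.48 and 1.20, far above the nearly flat orange line.

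Hamp is also a target of inflammatory signalling, and the acute phase genes gave a different order of livers. Saa1, a serum amyloid gene, stood at 4370, 252 and 217 CPM after vehicle and 5070, 4570 and 6803 CPM after insulin. Lcn2, encoding the siderophore-binding lipocalin, stood at 1963, 180 and 26.8 CPM after vehicle and 1335, 1441 and 1715 CPM after insulin. Both were low in vehicle replicates 2 and 3 and high in the other 4 livers. Hamp was lowest in the first of those livers and highest in the second. Vehicle replicate 3 was lowest for 12 of the 14 acute phase genes (23.8% of all genes were lowest there). Vehicle replicate 2 was lowest for 2 of the 14 and highest for 3, among them Fgg, a fibrinogen chain gene, at 9752 CPM. The part of inflammation in the Hamp level was not tested. None of the 14 passed the criteria between groups (2.86% of all genes did), and their median log2 fold change was 0.41 against -0.02 over all genes.

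**Figure D3:**
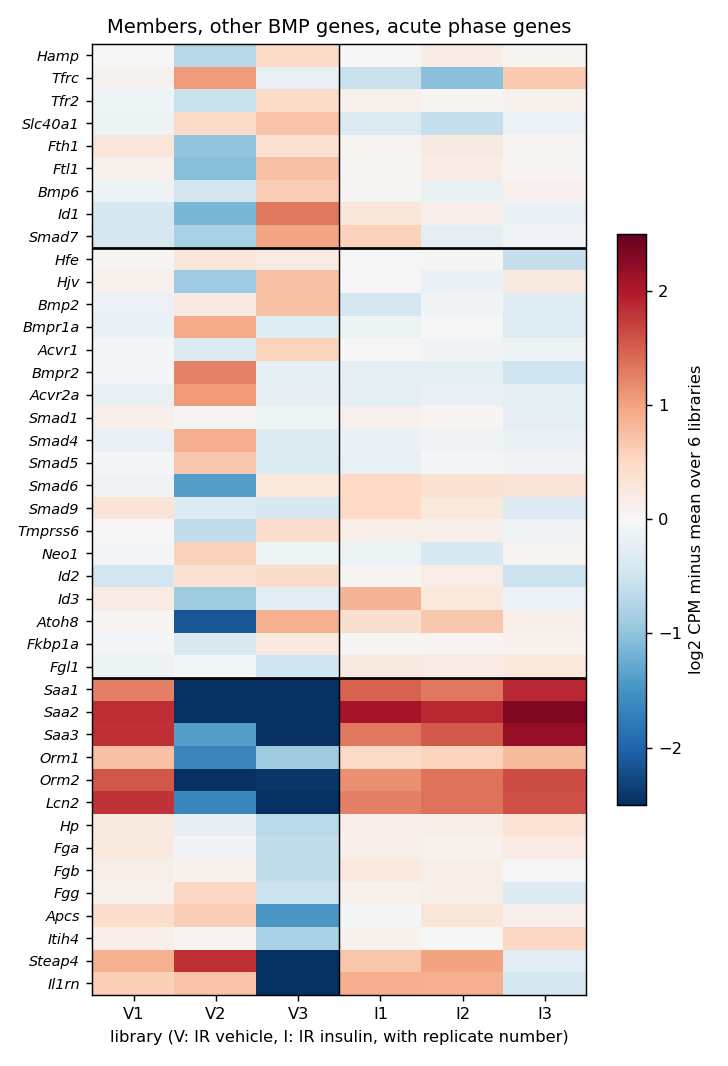
Log2 CPM minus the mean over the 6 libraries (colour, capped at the ends of its scale) for the 9 iron genes tested (top block), the other 19 BMP and SMAD genes tested (middle) and 14 acute phase genes (bottom), with libraries in columns. Vehicle replicate 3 is red for Id1, Smad7, Hamp and Ftl1 and dark blue for Saa1 and Lcn2, and vehicle replicate 2 is blue for all 6 of these genes.

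Of 91 other iron genes in 7 lists, 88 were tested. None passed the criteria in edgeR, where none had an unadjusted p under 0.05, and none did in DESeq2 (background 2.86% of all genes in edgeR and 3.44% in DESeq2). Their median log2 fold change was -0.07, against -0.02 over all genes. Their groups did not overlap for 3 higher and 4 lower genes, where the shares over all genes were 6.25% higher and 6.04% lower.

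The BMP and SMAD list (19 of 20 tested) held 7 genes with a fitted value above 0 and 12 below, with a median of -0.19. Bmp2, the endothelial ligand that acts beside BMP6, stood at 14.9, 19.2 and 27.3 CPM after vehicle and 12.2, 15.7 and 13.3 CPM after insulin (log2 fold change -0.58 ± 0.28 SE, unadjusted p = 0.0722 in edgeR's quasi-likelihood fit). As with Bmp6, its highest level was in vehicle replicate 3, and it passed the criteria with the GC offset at -0.74 (unadjusted p = 0.0205, edgeR). Bmpr2, a type II receptor, stood at 38.1, 92.3 and 33.1 CPM after vehicle and 33.2, 32.7 and 27.6 CPM after insulin, high in vehicle replicate 2 alone (-0.81 ± 0.40 SE). Its transcript is low in GC (41.01%), and genes low in GC were raised in that liver.

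In the list of IL-6 and CREBH signalling (10 tested, median 0.00), Il1r1, the interleukin-1 receptor, was lower in each insulin liver than in any vehicle liver, at 23.5 to 60.7 CPM against 63.7 to 85.5 CPM (-0.72 ± 0.37 SE, unadjusted p = 0.0874 in edgeR's fit). Cebpa, a hepatocyte factor needed for Hamp expression, ranged from 181 to 604 CPM after vehicle and 569 to 853 CPM after insulin, with a log2 fold change of 0.71 ± 0.45 (SE). Its lowest level was again in vehicle replicate 2, and its transcript is rich in GC (62.6%).

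For uptake, transport and storage (16 of 18 tested, median -0.23), Trf, the plasma iron carrier, stood at 255, 870 and 282 CPM after vehicle and 239, 246 and 295 CPM after insulin (-0.85 ± 0.47 SE). Its vehicle mean rested on vehicle replicate 2, the liver in which Hamp was lowest. Slc39a8, a metal importer, had a log2 fold change of -0.42 ± 0.26 (SE). For haem salvage and degradation (12 tested, median 0.25), Lrp1, the receptor for haem bound to haemopexin, had 263 to 315 CPM after vehicle and 325 to 436 CPM after insulin, with groups that did not overlap (0.40 ± 0.23 SE, unadjusted p = 0.12 in edgeR's fit). Hmox1, which opens the haem ring and releases its iron, had 11.9 to 58.6 CPM after vehicle and 36.9 to 101 CPM after insulin (0.91 ± 0.59 SE).

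Haem synthesis genes (9 tested, median -0.12) were led by Urod at -0.29 ± 0.21 (SE) and Alas2 at -0.39 ± 0.34 (SE), which make a porphyrin intermediate and begin erythroid haem synthesis. In the list of iron regulatory proteins and their targets (6 tested, median -0.16), Fbxl5, the ubiquitin ligase subunit that removes iron regulatory protein 2 when iron is plentiful, had -0.45 ± 0.33 (SE). Ireb2, which encodes that protein, had -0.37 ± 0.33 (SE), and both were highest in vehicle replicate 2, like Tfrc. Among 16 iron-sulfur cluster assembly genes (median 0.07), Isca1 was at -0.28 ± 0.20 (SE) and Iscu, the scaffold, at 0.32 ± 0.27 (SE). Vehicle replicate 3 was highest for 12 of these 16 and vehicle replicate 2 lowest for 11, the same pair of livers that bounded the hepcidin set.

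The genes whose centred log2 CPM lay closest to Hamp over the 6 libraries, of 10651 compared, were Coa3 (root mean square difference 0.0286), Uqcc1 (0.0448) and Ephb4 (0.0495), against a median of 0.491 over all genes. The closest to Tfrc were Hsd3b5 (0.164) and Gm15638 (0.207), against a median of 0.761. Hsd3b5, a steroid dehydrogenase gene of the liver, stood at 22.8, 50.9 and 20.8 CPM after vehicle and 12.9, 12.4 and 30.3 CPM after insulin, high in vehicle replicate 2 and insulin replicate 3 as Tfrc was. These likenesses describe 6 libraries that share their depth and GC differences.

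**Figure D4:**
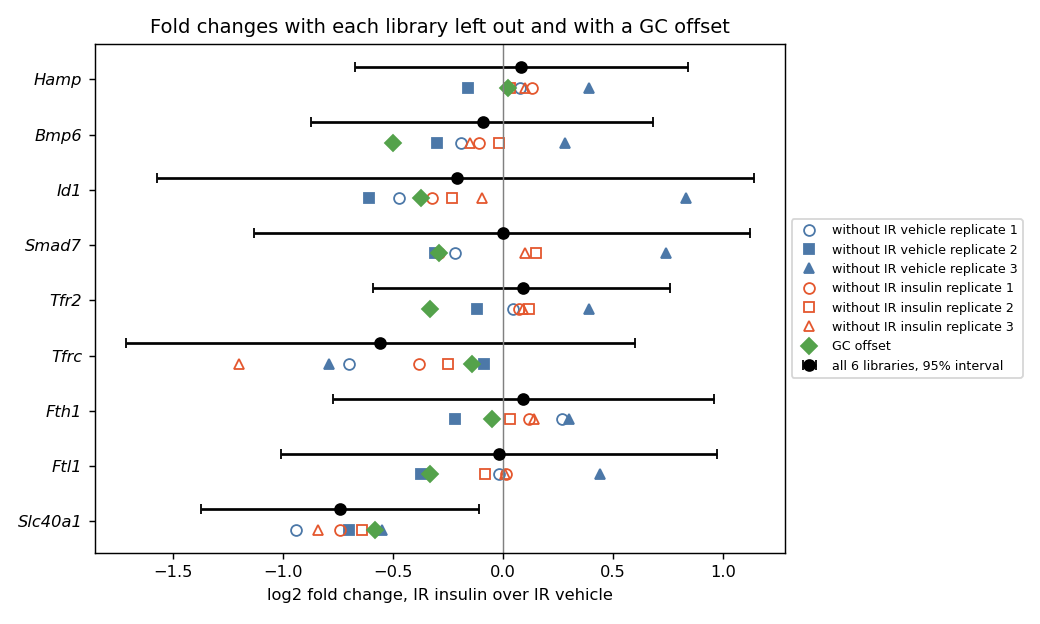
Log2 fold change of IR insulin over IR vehicle (x axis) for the 9 iron genes tested (y axis). Black points with bars are the fit of all 6 libraries with its 95% interval, open and filled symbols are fits with 1 library left out, and green diamonds use an offset for GC content. The interval spans 0 for every gene but Slc40a1, whose values all lie below 0, and for Id1 and Smad7 the fit without vehicle replicate 3 lies at 0.83 and 0.74, on the other side of 0 from the fit of all 6 libraries.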

How the data were processed

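Liver RNA of 3 IR vehicle and 3 IR insulin mice was analysed, with groups and replicate numbers taken from the sample labels. The deposited values were whole-number read counts per Ensembl gene, left unscaled by the authors, with 1 column per mouse. The study's methods state that libraries were made with the NEBNext Ultra RNA kit, sequenced on an Illumina HiSeq and aligned with Bowtie2 2.2.3 to mm10. The counting program, annotation and use of strand were not given in the sources used here. An aligner that does not split reads at introns can lose junction reads of genes with short exons.

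The groups were compared in edgeR 4.0.16 (R 4.3.3; glmQLFit and glmQLFTest, the quasi-likelihood test), with TMM normalization, filterByExpr (minimum count 10, minimum total 15), no covariate and Benjamini-Hochberg adjustment over the 13377 genes kept. SE were derived from the F statistic. DESeq2 1.42.0, limma 3.58.1 (voom with sample quality weights), other scalings, no filter, an offset for GC content (loess, span 0.5), a replicate block and leaving out each library were alternatives. The main fit was tested on simulated data whose spread between libraries was capped below that of these livers and whose planted changes were large. That test does not show how the fit performs at the spread seen here. Library totals were 18449986 to 21827619 counts, and precision was limited by the spread between mice (biological coefficient of variation 0.357). Chi-square tests of counts found no pair of libraries within sampling noise of each other.

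Coordinates, lengths and GC content came from GENCODE release 21 (build 38), which held 54495 of the 54532 genes, and promoters from RefSeq (GRCm38.p6). Symbols that differed were matched by synonym, as for Hjv. Ahsp was not analysed here. Named were the 10 iron genes, the 2 genes with the smallest p of each list of other iron genes, the 3 genes closest to Hamp and to Tfrc (of those with a mean of at least 50 normalized counts), and examples of each marker list; 1 gene that this rule names is not reported here. The first 2 stellate cell markers, Lrat (9.35 to 25 CPM) and Des (2.17 to 5.44 CPM), and neutrophil markers, S100a8 (1.43 to 50.3 CPM) and S100a9 (1.91 to 30.8 CPM), complete those lists, which summed to 200 to 350 CPM and 3.91 to 74.1 CPM. For hepatocytes, the 6 markers summed to 54223 to 156845 CPM, with Apoa1 at 3901 to 12978 CPM. The rule for the 10 iron genes used no measured value, but they and the lists were chosen with earlier results of these data known.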

Additional observations from a re-analysis of the deposited data

How the results depend on the processing

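Of 126 values of the 9 iron genes under 14 alternatives, 92 kept their direction and their side of the threshold, 26 changed sign (15 of them with no library left out), 7 lost the call and 1 gained it (Tfrc without insulin replicate 3). Of those that changed sign, Id1 also gained a call, without vehicle replicate 3. Each gene that changed sign had a main value smaller in size than its SE, and those of Smad7 (-0.0036) and Ftl1 (-0.022) were the smallest. No cause of these changes was tested. Slc40a1 kept its sign throughout but lost its call with library totals alone (-0.55, unadjusted p = 0.0719 in edgeR), the GC offset (-0.58), the replicate block with GC offset (-0.52) and voom with sample quality weights (-0.51). The sign changed for Ftl1, Bmp6 and Smad7 with library totals alone (0.12, 0.067 and 0.15), for Ftl1 and Smad7 with no filter (0.0071 and 0.029), for Tfr2 and Fth1 with the GC offset (-0.33 and -0.052), and for Fth1, Id1 and Smad7 with voom (-0.11, 0.18 and 0.24).

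The replicate numbers gave no sign of pairing the mice. Correlations of same-numbered deviations were -0.039, 0.0688 and 0.0174, against -0.11 to 0.0891 for other pairs of libraries. Such values cannot show that the mice were unpaired. With the replicate block, Ftl1, Id1 and Smad7 changed sign (0.14, 0.18 and 0.18) and 321 genes passed the criteria, 1 of them an iron gene of the set and 1 another iron gene. With the replicate block and GC offset, Tfr2 and Fth1 changed sign (-0.31 and -0.018).

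With 1 library left out, the log2 fold change ran from -0.16 to 0.39 for Hamp, -0.12 to 0.39 for Tfr2, -0.22 to 0.30 for Fth1, -0.37 to 0.44 for Ftl1, -0.30 to 0.28 for Bmp6, -0.61 to 0.83 for Id1, -0.31 to 0.74 for Smad7, -0.94 to -0.55 for Slc40a1 and -1.20 to -0.088 for Tfrc. Genes past the criteria ran from 90 (without insulin replicate 1) to 1323 (without vehicle replicate 1), iron genes of the set from 0 to 2, and other iron genes from 0 to 5. The 2 were found without insulin replicate 3, where 114 of all genes passed. The 5 were found without vehicle replicate 3, where 876 of all genes passed. No iron gene of the set passed with library totals, the GC offset, the replicate block with GC offset or voom. Of the other iron genes, 2 passed with library totals, 1 without the filter, 3 with the GC offset, 2 with the replicate block and GC offset and 1 with voom. Over all 13377 genes, 341 passed with library totals, 486 with the GC offset and 344 with the replicate block and GC offset, against 383 in the main fit. Without the filter 742 passed (533 of them among the 13377 genes of the filtered fit), and 213 passed with voom.

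With 3 mice a group, the 95% intervals of the iron genes other than Slc40a1 all covered -0.59 to 0.60 (log2), so the fits did not exclude changes inside those bounds.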
